A study of Mus musculus with 384 samples.

Results

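Sca-1-positive cells were compared with Sca-1-negative cells sorted on the same plate from back skin of mice with floxed alleles of 2 nuclear factor I (NFI) genes, Nfib and Nfix. The cells were taken by plate, genotype and sorting label: 19 Sca-1-positive cells lay in plate rows A and B, and 61 of 62 Sca-1-negative cells lay in rows C to H. Together these 80 cells are part of the 378 of 384 cells in the series that held at least 1000 genes at 1 TPM (transcripts scaled to a fixed total per cell) or more, spike-in rows aside. Of these 80 cells none held fewer than 3936 genes.

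Both gates came from mice labelled dKO and male at postnatal day 70, which carried Sox9-CreER and the alleles NFIBfl/fl and NFIXfl/fl with the reporter R26-YFPfl/fl. Both gates were viable (DAPI-negative), integrin α6-positive and YFP-positive, and differed by the Sca-1 label alone. Sox9-CreER is an inducible recombinase driven by the control region of a hair follicle stem cell gene, the floxed Nfib and Nfix alleles are its targets, and YFP reports its activity. Neither the timing of induction nor the recombination of the NFI alleles in each cell was analysed here. Values from cKO plate 3 are set beside these: 22 Sca-1-positive and 65 Sca-1-negative cells from mice labelled cKO, of the same sex label and age and with the same Sox9-CreER, NFIXfl/fl and R26-YFPfl/fl but with NFIBfl/+, that is, 1 floxed Nfib allele. A further 93 Sca-1-negative dKO cells lay on dKO plate 1. No label gives the animal behind a cell, so each gate on a plate counts as 1 sample, no test was possible, and all differences below are descriptions of these cells. Gate and plate row were the same split on dKO plate 2 and cannot be told apart.

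Sca-1, the product of Ly6a, is a small membrane-anchored protein of the Ly6 family. In mouse back skin it is abundant on basal cells of the interfollicular epidermis and of the follicle mouth, and low on the bulge, the niche low in the follicle where the CD34-positive stem cells rest between hair cycles. Bulge stem cells express SOX9, LHX2, NFATC1 and TBX1, and at rest they are held by BMP signals. Integrin α6 anchors basal keratinocytes to the basement membrane in all of these compartments.

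The Sca-1-positive cells held 3936 to 5967 genes (median 4770) and the Sca-1-negative cells 4260 to 6389 (median 5189). The ribosomal row Rn18s-rs5 took 60.9% of the TPM in the positive gate and 56.03% in the negative gate on average, spike-ins took 2.87% and 3.75%, and mitochondrial genes 2.48% and 3.32%. All other genes share what these rows leave, and the median log2 ratio of all 6534 measured genes was -0.30 on dKO plate 2. Both gates of plate 2 held RNA of 4 Y-linked genes, in 14 of 19 and 42 of 61 cells at a sum of 10 TPM or more, and no cell reached 10 TPM of Xist. On dKO plate 1 the reverse held: 90 of 93 cells reached 10 TPM of Xist and none the Y-linked sum, although its cells are labelled male too. Plate 1 therefore differs from plate 2 in more than its wells.

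A gene was measured where the mean of the gate means reached 5 TPM. It was called higher or lower where mean TPM differed at least 2-fold with 1 TPM added to each mean, and mean log2(TPM + 1) differed by at least 1 in the same direction. By this rule 280 of 6534 measured genes (4.29%) were higher in the Sca-1-positive cells and 680 (10.4%) were lower. The higher genes included the surface proteins Ly6c1, Il1r2, Cd55 and Gdpd2, the signal Bmp4, metallothioneins, the basal keratin Krt14 and most measured immediate early genes. The lower genes included most measured bulge genes, with Cd34, Cd200, Lgr5, Sox9 and Tbx1 at or near 0 in the positive gate. With a size factor between the gates, which set the median of all genes at -0.11, 351 genes were higher and 546 lower, so the higher share of the calls was 39.1% against 29.2%.

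**Figure D1:**
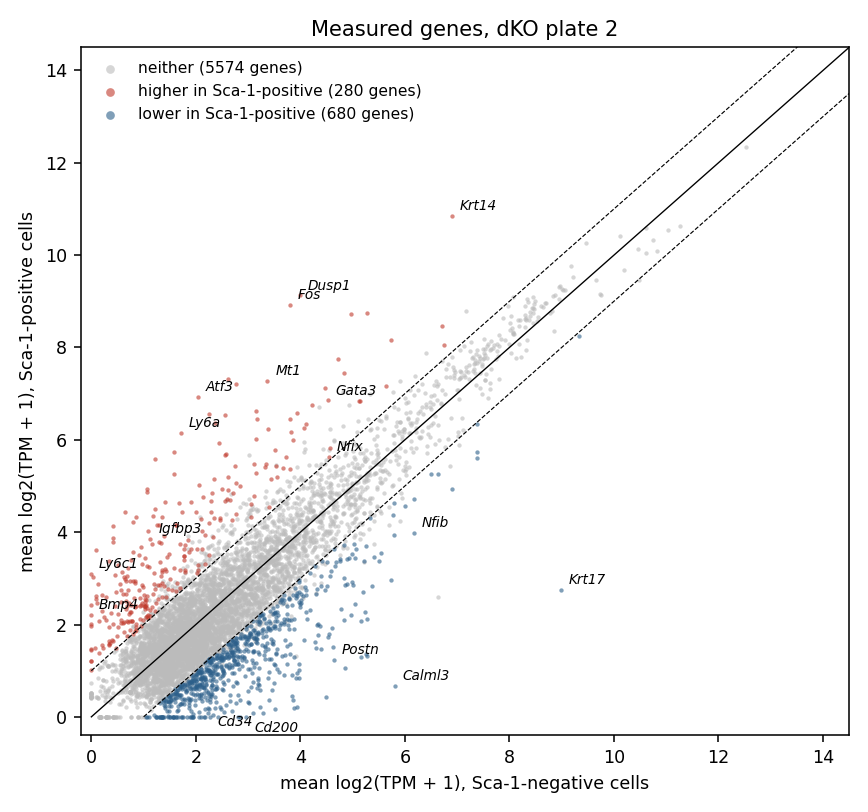
Mean log2(TPM + 1) of the 6534 measured genes in 61 Sca-1-negative cells (x axis) and 19 Sca-1-positive cells (y axis) of dKO plate 2, each point a gene. The solid line marks equal levels and the dashed lines a difference of 1, and 280 genes past the size rule lie above and 680 below.

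Ly6a itself checked the sort. Its level in the Sca-1-positive cells ran from 0 over a median of 97.9 to 372 TPM, and 17 of 19 cells reached 10 TPM (89.5%, exact binomial 95% interval 66.9 to 98.7%, which covers counting error only). In the Sca-1-negative cells it ran from 0 over a median of 0 to 304 TPM, with 16 of 61 cells at 10 TPM or more (26.2%, 15.8 to 39.1%). The gates were thus apart in most cells but overlapped in RNA, and mean Ly6a was 4.66-fold higher in the positive gate (124.6 against 25.95 TPM). Since the protein was used for sorting, this difference describes the gate. On cKO plate 3 mean Ly6a was 68.4 TPM in positive and 19.7 TPM in negative cells. Ly6a lies at chr15:74994877-74998031 on the minus strand of GRCm38.

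Ly6c1, a Ly6 family member further along the same cluster (chr15:75044018-75048830, minus strand), ran from 0 over a median of 9.31 to 347 TPM in the positive cells. It was listed at 0 in all 61 negative cells. The 9 positive cells that reached 10 TPM (47.4%, 24.5 to 71.1%) all reached 10 TPM of Ly6a too. A listing at 0 in 61 cells allows a share of up to 4.92%. On cKO plate 3 the gate means of Ly6c1 lay side by side, at 5.07 TPM in positive and 4.17 TPM in negative cells, and the mean on dKO plate 1 was 2.33 TPM. Ly6 genes are close copies of one another, and how reads common to several were shared out cannot be checked from TPM. Of the 8 Ly6 family genes measured, 2 were higher, against 4.29% of all genes, and none lower. They were Ly6a, whose protein was sorted on, and Ly6c1.

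Bmp4, a secreted BMP ligand, was at 10 TPM or more in 6 of 19 positive cells (31.6%, 12.6 to 56.6%), with a median of 0 and a highest value of 174.8 TPM, and was listed at 0 in all 61 negative cells. It was unevenly spread over the positive wells, with a mean of 43.1 TPM over 10 cells of row A and 3.77 TPM over 9 cells of row B, and row B alone did not pass the size rule. Bmp4 and Ly6c1 were found together in 2 cells, of 6 and 9 with each. On cKO plate 3 the mean of Bmp4 was 15.3 TPM in positive and 0.11 TPM in negative cells.

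Cd200, an inhibitory surface ligand of bulge keratinocytes, was listed at 0 in all 19 positive cells, which allows a share of up to 15.8%. In the negative cells it ran from 0 over a median of 5.32 to 322 TPM, and 27 of 61 reached 10 TPM (44.3%, 31.5 to 57.5%). Bgn, which encodes the matrix proteoglycan biglycan, was likewise listed at 0 in all 19 positive cells, while in the negative cells its median was 0 and its highest value 537 TPM, with 26 of 61 at 10 TPM or more. Both genes were also listed at 0 in all positive cells of cKO plate 3, where their means in negative cells were 19.3 TPM for Cd200 and 22.3 TPM for Bgn.

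**Figure D2:**
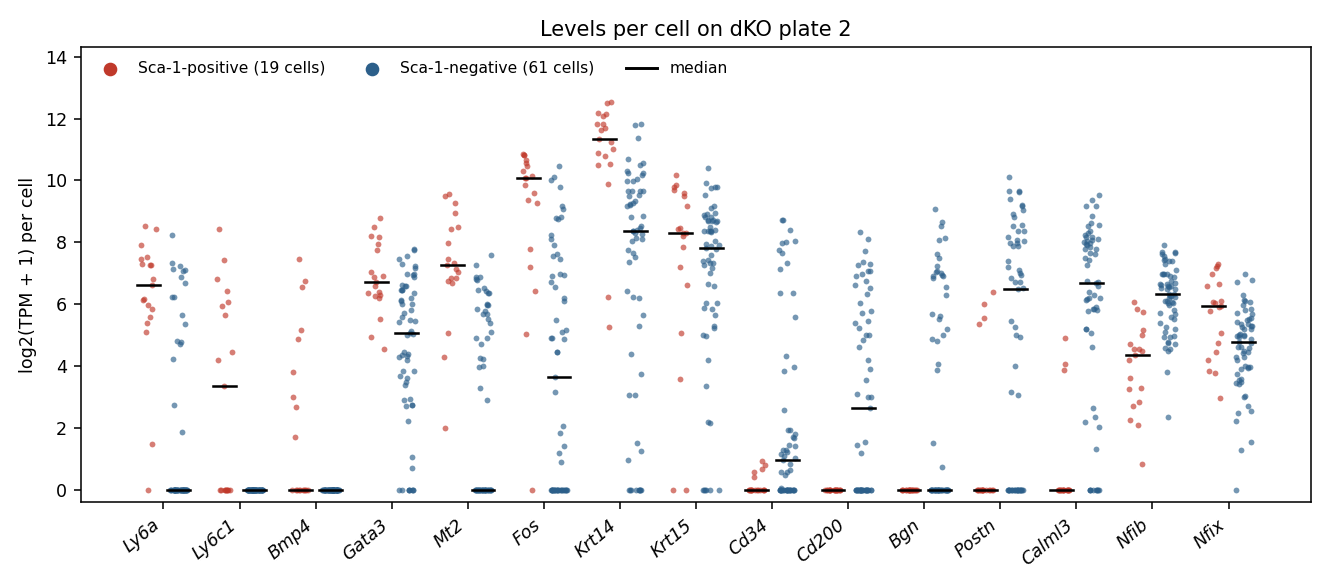
Levels as log2(TPM + 1) of 15 genes in each Sca-1-positive (left of each pair) and Sca-1-negative cell (right) of dKO plate 2, with points spread sideways for sight and black bars at the medians. Ly6c1 and Bmp4 lie at 0 in every negative cell and Cd200 and Bgn in every positive cell, while Ly6a, Krt15 and Nfix overlap.

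Of 16 bulge genes measured, 13 were lower in the Sca-1-positive cells and none higher, against 10.4% lower among all measured genes. The list median of the log2 ratio was -2.98, or -2.70 without the genes listed at 0 in a whole gate, against -0.30 for all genes. Of 14 measured on cKO plate 3, 9 were lower (background 5.8%) and none higher (background 3%), with a median of -2.65. The bulge lists of this account were drawn up with earlier results of these data known.

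Cd34, the sialomucin used to isolate bulge cells, did not exceed 0.90 TPM in any positive cell. In the negative cells it ran from 0 over a median of 0.94 to 425 TPM, and 16 of 61 reached 10 TPM. Many negative cells were therefore as low as the positive ones. Lgr5, a receptor for R-spondins found in the lower bulge, did not exceed 0.47 TPM in the positive cells, while 9 of 61 negative cells reached 10 TPM and the highest held 734 TPM. Its call was lost once the highest 5% of cells per gene were left out.

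Among the transcription factors of the bulge, Sox9 was at 10 TPM or more in 1 of 19 positive and 40 of 61 negative cells, with medians of 0 and 22 TPM and highest values of 32.5 and 158.5 TPM. Tbx1 was listed at 0 in every positive cell and reached 227 TPM in the negative cells, with 26 of 61 at 10 TPM or more. Lhx2, which keeps the stem cells undifferentiated, was also listed at 0 in all positive cells and reached 10 TPM in 13 negative cells. Its negative mean was 10.02 TPM, and its call was lost under 6 alternatives. Nfatc1, a calcineurin-dependent factor of quiescent bulge cells, was 8.43-fold lower in mean TPM (7.68 against 72.2 TPM).

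Of 21 follicle and epidermis transcription factors measured, 11 were lower and 4 higher, against 10.4% and 4.29% of all genes. Sox9, Lhx2, Nfatc1, Tbx1 and Barx2 were counted here and among the lower bulge genes too. The lower ones included the Hedgehog effector Gli2 (0.62 against 15.3 TPM) and Runx1 (3.68 against 19.2 TPM). The higher ones were Gata3, Klf5, Klf4 and Tfap2c. Gata3, needed for the inner root sheath and the epidermal barrier, ran from 22.8 over a median of 105.3 to 442 TPM in the positive cells and from 0 over 32.6 to 222 TPM in the negative cells. The ranges overlapped, and mean Gata3 was 2.77-fold higher. Klf5, a basal keratinocyte factor, was 2.41-fold higher in mean TPM, with all 19 positive cells at 10 TPM or more against 31 of 61.

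Krt15, a keratin widely used as a bulge marker, was 1 of 3 measured bulge genes that passed neither way, with Sfrp1 and Col18a1. It ran from 0 over a median of 315 to 1149 TPM in the positive cells and from 0 over 227 to 1354 TPM in the negative cells, and its means of 421 and 284 TPM did not pass the size rule. In single cells, at least 3 of 12 bulge markers reached 10 TPM in 1 of 19 positive cells (5.26%, 0.133 to 26.03%) and in 43 of 61 negative cells (70.5%, 57.4 to 81.5%). Both gates are labelled hair follicle stem cells, and the positive gate lacked most bulge markers of that label. At least 3 of 6 basal keratinocyte markers were found in 19 of 19 positive and 60 of 61 negative cells.

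The mean log2(TPM + 1) over 20 bulge genes ran from 0.79 over a median of 1.15 to 1.55 in the positive cells. In the negative cells it ran from 0.69 over 2.70 to 4.82, and 50 of 61 negative cells lay above every positive cell. The remaining negative cells lay within or below the range of the positive ones. Among the 61 negative cells this bulge level and the Ly6a level were related with Spearman's rho of -0.41, as a description over cells that share a plate. The number of genes detected was related to the bulge level with rho of -0.11 in the same cells.

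**Figure D3:**
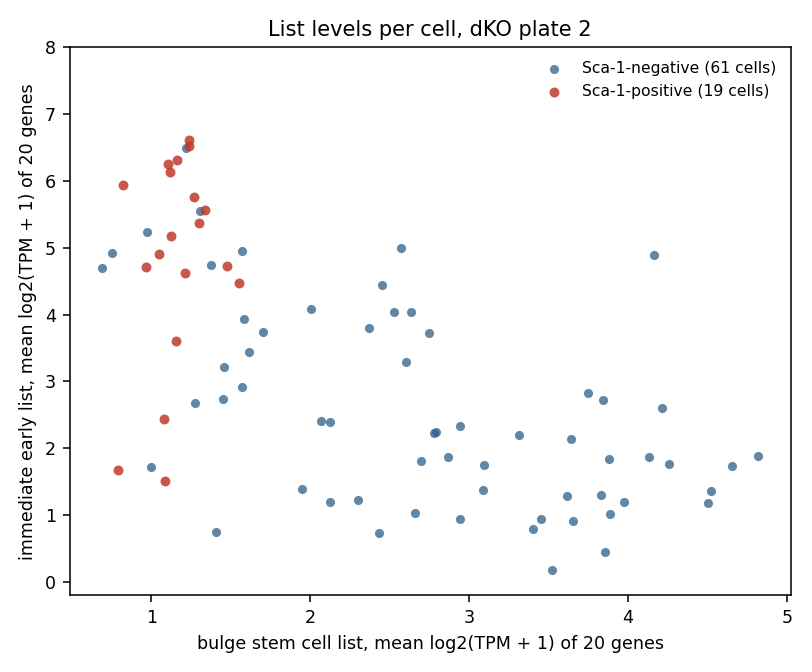
Each point is a cell of dKO plate 2, placed by its mean log2(TPM + 1) over 20 bulge genes (x axis) and over 20 immediate early genes (y axis). The 19 Sca-1-positive cells keep to bulge levels from 0.79 to 1.55 and to a wide range of immediate early levels, while the 61 Sca-1-negative cells reach 4.82 on the x axis.

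The lowest ratios under the naming rule went to Ctgf, Bgn, Cd200, Cd34, Calml3, Tbx1, Igfbp4, Fgf1, Vwa2 and Timp2. Calml3, a calmodulin-like protein of stratified epithelia, ran from 0 over 0 to 29.3 TPM in the positive cells and from 0 over 102.98 to 743 TPM in the negative cells. With 1 TPM added, its mean was 41.5-fold lower, and 46 of 61 negative cells lay above every positive cell. Its neighbour Calm5 went the other way: 10 of 19 positive and 1 of 61 negative cells reached 10 TPM, with means of 21.1 and 0.75 TPM. Calml3 lies at chr13:3802896-3804316 on the minus strand and Calm5 at chr13:3854173-3854761 on the plus strand of GRCm38. Both plates that hold both gates had this opposite pair, with cKO plate 3 means of 4.26 and 133.3 TPM for Calml3 and 27.7 and 1.583 TPM for Calm5.

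Igfbp4, a secreted binder of insulin-like growth factors, was at 10 TPM or more in 1 of 19 positive and 39 of 61 negative cells, with means of 2.52 and 115.5 TPM. A second family member, Igfbp3, went in the opposite direction, with means of 182.9 and 31.1 TPM, and 9 of 19 positive cells (47.4%) and 9 of 61 negative cells (14.8%) reached 10 TPM. Ctgf, a matricellular protein induced by YAP and TEAD, was listed at 0 in every positive cell and reached 865 TPM in the negative cells, with 17 of 61 at 10 TPM or more. Its relative Cyr61, another target of the same factors, was higher in the positive gate (254 against 57.2 TPM), but 63.2 against 38.4 TPM on cKO plate 3, where it was not called. Of 8 YAP and TEAD targets and components measured, 1 was higher and 1 lower, against 4.29% and 10.4% of all genes.

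Fgf1, a fibroblast growth factor, was listed at 0 in every positive cell and reached 10 TPM in 23 of 61 negative cells. Vwa2, a basement membrane protein, did so in 32 of 61 negative cells and in no positive cell, where it stayed at or below 4.99 TPM. Timp2, an inhibitor of matrix metalloproteinases, did not exceed 1.93 TPM in the positive cells and had a negative mean of 32.1 TPM.

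Of 20 matrix genes measured, 6 were lower (Bgn, Tnc, Egfl6, Postn, Fbln1 and Hspg2), 2 were higher (Col16a1 and Sparc), and 12 passed neither way, against 10.4% lower and 4.29% higher among all genes. Postn, which encodes the bulge matrix protein periostin, ran from 0 over 0 to 82.5 TPM in the positive cells and from 0 over 88.6 to 1113 TPM in the negative cells, with 31 of 61 negative cells above every positive one. Fbln1, a fibulin of basement membranes, reached 10 TPM in 1 of 19 positive and 41 of 61 negative cells. Col16a1, a minor collagen near basement membranes, was 2.82-fold higher in the positive gate (71.1 against 24.5 TPM).

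Of 24 adhesion and junction genes, 20 passed neither way and 4 were lower, Ctnnb1, Alcam, Epcam and Cd44, against 10.4% of all genes. Neither Ctnnb1 nor Cd44 was called against dKO plate 1, Ctnnb1 was not called with row B alone, and Cd44 was not called against the negative cells nearest in genes detected. Alcam, an immunoglobulin-type adhesion molecule, was at 10 TPM or more in 1 of 19 positive and 47 of 61 negative cells, with means of 1.90 and 45.9 TPM. Itga6, the sorted integrin, was not called, with means of 64.2 and 37.9 TPM.

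**Figure D4:**
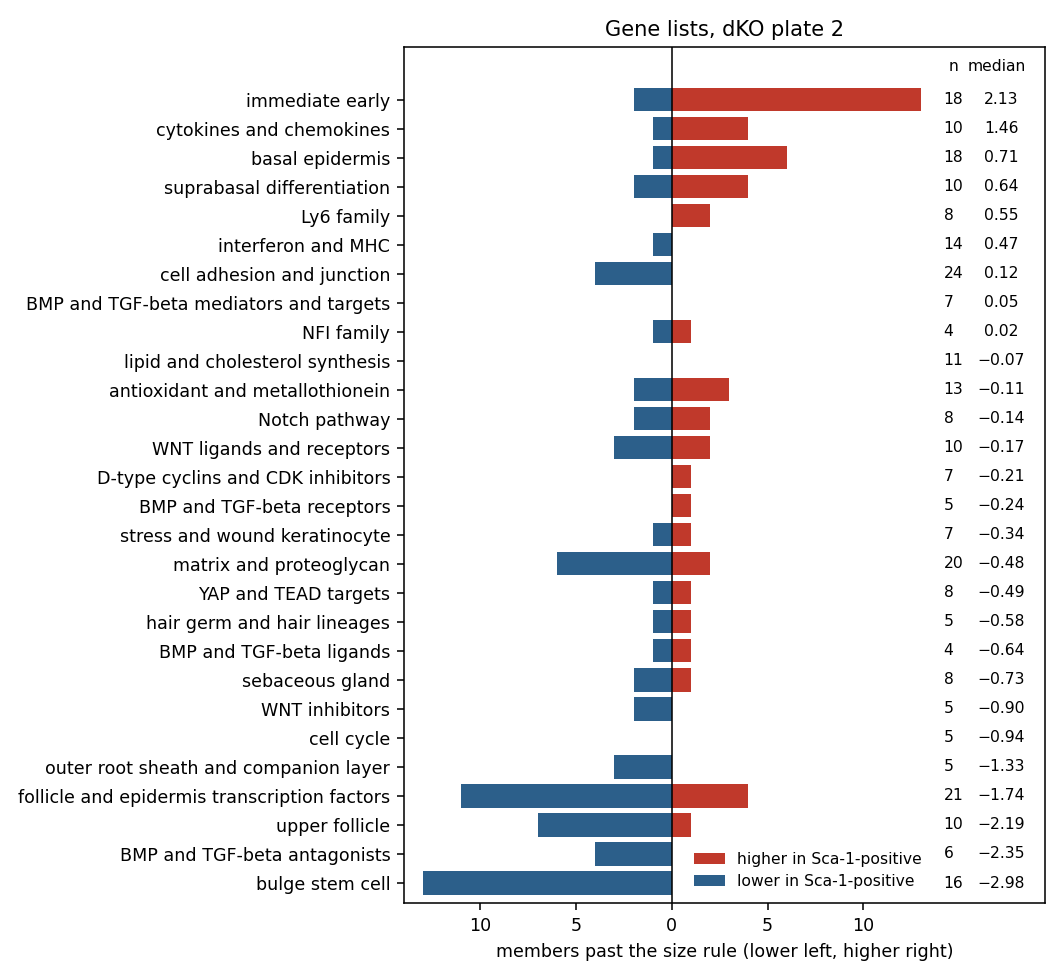
Number of list members past the size rule on dKO plate 2, with members lower in Sca-1-positive cells to the left and higher to the right; the numbers at the right give the measured members (n) and their median log2 ratio. The bulge list has 13 lower and none higher of 16, and the immediate early list 13 higher and 2 lower of 18.

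Among upper follicle genes, 7 of 10 measured were lower and 1 was higher in the positive cells, against 10.4% and 4.29% of all genes. Their median log2 ratio was -2.19, and it ran from -3.58, without cells holding markers of another type or of the cell cycle, to -0.83 against the negative cells nearest in genes detected. Lrig1, a stem cell marker of the junctional zone, was 3.37-fold lower in mean TPM (12.5 against 44.5 TPM). Krt79, a keratin of the follicle opening, reached 10 TPM in 1 of 19 positive and 17 of 61 negative cells, with means of 5.12 and 92.4 TPM. Defb6, a defensin, showed the same order (7.05 against 107.8 TPM). On cKO plate 3 its means were 160.7 and 169.9 TPM. There 1 of 22 positive and 20 of 65 negative cells reached 10 TPM of Defb6. The ratios of Krt79 and Defb6 turned against those nearest negative cells, to a log2 ratio of 2.33 for Krt79 and 2.24 for Defb6, and Cst6, also lower, was not called there. Lgr6, a receptor of upper follicle and epidermal progenitors, was the higher member (21.5 against 8.93 TPM). It did not pass in row B alone.

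Of 18 basal epidermis genes, 6 were higher (Krt14, Mt1, Mt2, Sparc, Igfbp3 and Dll1) and 1, Ptn, was lower, against 4.29% and 10.4% of all genes. Krt14, the type I keratin of basal cells, ran from 37.4 over 2606 to 5888 TPM in the positive cells and from 0 over 332 to 3594 TPM in the negative cells. Its mean was 4.88-fold higher, with 7 positive cells above every negative one. Krt5, its type II partner, was at 1474 and 898 TPM on average and was not called. Krt17, found in the outer root sheath, was lower, at 0 over a median of 0 to 2018 TPM in positive and 47.6 over 569 to 3414 TPM in negative cells.

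The metallothioneins Mt1 and Mt2, small metal-binding proteins, were high in most positive cells. Mt2 ran from 3.02 over 152.2 to 748 TPM in the positive cells and from 0 over 0 to 193 TPM in the negative cells. It was at 10 TPM or more in 18 of 19 positive cells (94.7%, 73.97 to 99.9%) and in 28 of 61 negative cells (45.9%, 33.1 to 59.1%). Mean Mt2 was 256 and 38.1 TPM on cKO plate 3. Mt1 went the same way, with means of 278 and 37.4 TPM. The genes lie side by side on chromosome 8 and are near copies, so their values are not independent.

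The suprabasal list held 4 higher members (Krt1, Dsg1a, Calm5 and Sfn) and 2 lower ones (Sbsn and Calml3) of 10, against 4.29% and 10.4% of all genes. Its median log2 ratio was 0.64, but -0.25 with row B alone. The median ran from -0.46, without cells holding markers of another type or of the cell cycle, to 1.12 against the negative cells nearest in genes detected. On cKO plate 3, 1 of 13 was higher (background 3%) and 1 lower (background 5.8%), with a median of 0.60. Krt1, the first keratin of differentiating layers, included a single cell at 3852 TPM, with a median of 4.32 TPM in the positive cells, and it did not pass in row B alone. At least 3 of 6 suprabasal markers were found in 3 of 19 positive and 9 of 61 negative cells. Those 3 positive cells held Ly6a at 0, 1.81 and 68.99 TPM, and the cell without Ly6a was the cell at 3852 TPM of Krt1. Sfn, the epithelial 14-3-3 protein, was at 10 TPM or more in all 19 positive cells and was 2.66-fold higher in mean TPM, but not against dKO plate 1. Sprr2a2, a cornified envelope precursor with near-identical copies, had a median of 0 and a highest value of 916 TPM in the positive cells and passed 10 TPM in 6. On dKO plate 1, where all cells are Sca-1-negative, its mean was 203 TPM in rows A and B and 3.34 TPM in rows C to H. The same rows thus differed in Sprr2a2 on a plate with no difference in gate. Other named genes went both ways across these rows of that plate. Means were lower in rows A and B than in C to H for Il1r2 (0 and 2.52 TPM) and Gdpd2 (0 and 0.79 TPM). So were those of Ly6c1 (0.16 and 3.05 TPM) and Cyr61 (14.21 and 66.95 TPM). Means were higher in rows A and B for Junb (140.4 and 65.5 TPM), Mt1 (115.3 and 60.1 TPM) and Il1rn (45.5 and 23.3 TPM). The part of the rows in the gate differences was not tested.

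Of the genes with the highest ratios, most were quiet in the negative gate. Il1r2, the decoy receptor for interleukin 1, ran from 0 over 20.3 to 94.8 TPM in the positive cells, and 13 of 19 reached 10 TPM against 1 of 61 negative cells. Its means were 32.2 and 0.13 TPM on cKO plate 3. Gdpd2, a glycerophosphodiesterase, did not exceed 2.88 TPM in any negative cell, while 12 of 19 positive cells lay above that and the highest held 90.5 TPM. Cd55, which restrains complement on the cell surface, reached 10 TPM in 13 of 19 positive and 4 of 61 negative cells, with means of 36.9 and 1.502 TPM, but its cKO plate 3 means were 12.5 and 8.87 TPM.

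Slc27a3, a fatty acid transport protein, reached 10 TPM in 13 of 19 positive and 5 of 61 negative cells, with means of 52.7 and 3.19 TPM. Chit1, a chitinase, did so in 8 and 1 cells. Efemp1, a fibulin, did so in 6 and 1 cells, with 51.5 TPM on average in row A and 4.06 TPM in row B.

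Of 10 cytokine and chemokine genes, 4 were higher (Ccl27a, Il1rn, Il6ra and Ackr4) and 1, Cxcl12, was lower, against 4.29% and 10.4% of all genes. Their median log2 ratio was 1.46, but 0.70 against the negative cells nearest in genes detected, 0.25 without cells holding markers of another type or of the cell cycle, and 0.43 on cKO plate 3. Ccl27a, a skin chemokine that draws T cells, ran from 6.65 over 484 to 3175 TPM in the positive cells and from 0 over 72.0 to 1221 TPM in the negative cells. Il1rn, the interleukin 1 receptor antagonist, reached 10 TPM in 14 of 19 positive and 9 of 61 negative cells. Of 14 interferon and MHC genes, none was higher and 1, H2-T23, was lower, against 4.29% and 10.4% of all genes. H2-T23 lost its call with a pseudocount of 10 and was not called on cKO plate 3.

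Of 4 BMP and TGF-beta ligands measured, Bmp4 was higher and Tgfb2 lower (5.75 against 41.5 TPM), against 4.29% and 10.4% of all genes. Of 6 antagonists and binders, 4 were lower, against 10.4% of all genes, and none higher. Fst, which captures activins, did not exceed 1.79 TPM in any positive cell and reached 10 TPM in 34 of 61 negative cells. Sostdc1, a BMP and WNT antagonist, had means of 13.95 and 91.1 TPM, and Fstl1 3.51 and 26.01 TPM. On cKO plate 3 none of Tgfb2, Sostdc1 and Fstl1 was called. Sostdc1 had means of 70.03 and 95.4 TPM there, and 5 of 22 positive and 49 of 65 negative cells reached 10 TPM. Among 5 receptors Tgfbr3 was higher (22.6 against 3.70 TPM), and none of 7 SMAD mediators and targets passed, Id1 and Id3 included. These counts stand against 4.29% higher and 10.4% lower among all genes. Tgfbr3 had means of 18.2 and 16.2 TPM on cKO plate 3 and was not called there.

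Among 10 WNT ligands and receptors, the ligands Wnt3 (13.4 against 2.81 TPM) and Wnt16 (22.1 against 5.50 TPM) were higher, and the receptors Fzd7, Fzd1 and Lrp6 were lower. Fzd7 stayed below 10 TPM in every positive cell and reached it in 43 of 61 negative cells. Of 5 WNT inhibitors, Wif1 and Dkk3 were lower, and Wif1 was listed at 0 in all positive cells with a negative mean of 25.4 TPM. In the Notch pathway the ligand Dll1 and the target Hes1 were higher and the receptor Notch2 and the coactivator Maml2 lower, of 8 measured. These WNT and Notch counts stand against 4.29% higher and 10.4% lower among all genes. Dkk3 lost its call under 6 alternatives, Notch2 under 4, and Dll1 and Maml2 under 3 each. Hes1 had means of 35.8 and 4.03 TPM on dKO plate 2 but 6.45 and 18.2 TPM on cKO plate 3, and it did not pass in row B alone or against dKO plate 1.

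Nfib itself, 1 of the targeted genes, was lower in the positive cells. It ran from 0.79 over 19.4 to 66.5 TPM there and from 4.14 over 79.3 to 243 TPM in the negative cells, and 37 of 61 negative cells lay above every positive one. Mean Nfib was 3.96-fold lower (22.1 against 90.4 TPM), against 32.1 and 67.1 TPM on cKO plate 3 and 58.4 TPM in the negative cells of dKO plate 1. Nfix went the other way, from 6.84 over 60.2 to 157.6 TPM in the positive and from 0 over 26.7 to 124.1 TPM in the negative cells, and its mean was 2.05-fold higher. Nfix did not pass in row B alone. Nfia and Nfic were not called, with means of 92.8 and 83.5 TPM for Nfia. The table gives gene totals, so RNA from a deleted allele and from an intact one cannot be separated, and these values check neither deletion.

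Immediate early genes are switched on within minutes of a stimulus, and their promoters often hold cAMP response elements and serum response elements. Of 18 measured, 13 were higher in the positive cells and 2 (Egr2 and Ier3) lower, against 4.29% and 10.4% of all genes, with a median log2 ratio of 2.13. To show what these promoters hold, the 250 bases before the RefSeq start site (GRCm38.p6) are printed for 3 of the 13, with the cAMP response element TGACGTCA, which reads the same on both strands, in capitals. Of the 11 genes with a window, 2 held it, Dusp1 and Btg2, against 508 of 32851 windows of that length (1.55%). The Fos window held no exact match. Only these exact bases were searched, so variant and partial forms of the element were not counted in any window. A match is a description, not a site or a cause. Dusp1 lies on the minus strand at chr17:26508473-26508722, Btg2 on the minus strand at chr1:134079156-134079405 and Fos on the plus strand at chr12:85473640-85473889, each 5′ to 3′ along the gene. The RefSeq start of Btg2 lies upstream of the gene's start in GENCODE M21 (chr1:134075170-134079120), so its window ends before the GENCODE transcripts begin.
Dusp1: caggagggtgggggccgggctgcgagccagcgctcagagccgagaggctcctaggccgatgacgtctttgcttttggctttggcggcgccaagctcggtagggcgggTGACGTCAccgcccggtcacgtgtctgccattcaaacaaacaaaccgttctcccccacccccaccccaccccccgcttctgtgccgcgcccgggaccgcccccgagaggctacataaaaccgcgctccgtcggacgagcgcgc
Btg2: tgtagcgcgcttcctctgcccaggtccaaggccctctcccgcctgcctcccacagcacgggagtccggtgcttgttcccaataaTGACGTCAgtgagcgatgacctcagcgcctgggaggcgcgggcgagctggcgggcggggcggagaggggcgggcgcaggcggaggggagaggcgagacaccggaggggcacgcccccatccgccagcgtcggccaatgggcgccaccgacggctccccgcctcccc
Fos: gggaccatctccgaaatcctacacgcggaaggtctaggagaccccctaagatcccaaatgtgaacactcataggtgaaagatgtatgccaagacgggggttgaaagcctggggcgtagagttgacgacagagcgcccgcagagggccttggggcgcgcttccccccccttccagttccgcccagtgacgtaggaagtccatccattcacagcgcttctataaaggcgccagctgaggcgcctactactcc

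Fos, a subunit of the AP-1 transcription factor, ran from 0 over 1081 to 1872 TPM in the positive cells and from 0 over 11.6 to 1419 TPM in the negative cells, and its mean was 6.24-fold higher. Of the 19 positive cells, 5 lay at or below 220 TPM, 4 of them in row B, and the other 14 at 612 TPM or more. The positive gate was thus not uniform. Dusp1, a phosphatase that ends MAP kinase signals, was at 947 and 163.2 TPM on average, and Btg2, an antiproliferative factor, at 66.2 and 7.19 TPM.

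Atf3, a stress-induced factor of the same leucine zipper class, ran from 0 over 245 to 1050 TPM in the positive cells and from 0 over 0 to 495 TPM in the negative cells. Zfp36, which degrades cytokine mRNA, was at 10 TPM or more in 18 of 19 positive and 23 of 61 negative cells. Across the 19 positive cells Fos and Atf3 were related with Spearman's rho of 0.77.

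The size of this difference depended on which negative cells were used. On dKO plate 1 the negative cells had means of 475 TPM for Fos, 110.7 TPM for Atf3 and 493 TPM for Dusp1. Against them 4 of 18 immediate early genes were higher and 2 lower, and the median log2 ratio was 0.70 in place of 2.13. Of the same 18 genes on cKO plate 3, 3 were higher (background 3%) and none lower, with a median of 0.53, and mean Fos was 554 and 277 TPM. The bulge list, by comparison, kept a median of -2.87 against dKO plate 1, with 11 of 14 lower and 1, Krt15, higher. Within the 61 negative cells of plate 2, the immediate early and bulge levels were related with Spearman's rho of -0.51. The part of the plate in the immediate early difference was not tested.

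**Figure D5:**
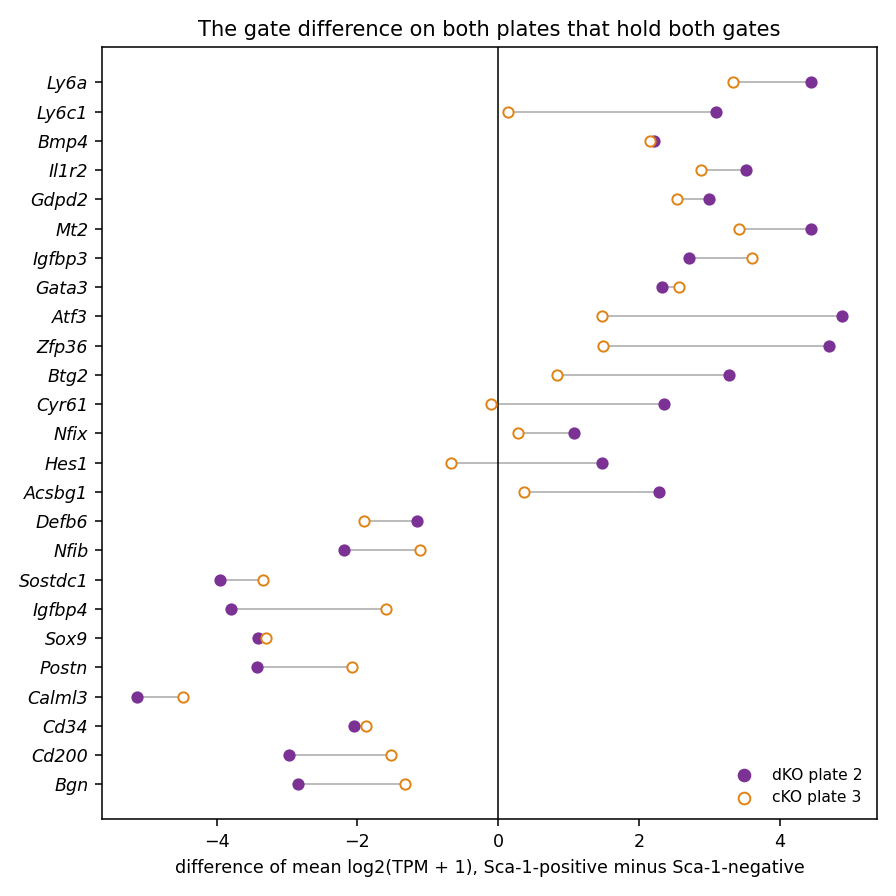
Difference in mean log2(TPM + 1), Sca-1-positive minus Sca-1-negative cells, for 25 genes on dKO plate 2 (filled, 19 and 61 cells) and cKO plate 3 (open, 22 and 65 cells). Ly6c1, Atf3, Zfp36, Cyr61 and Hes1 lie far apart on the plates, while Bmp4, Sox9, Cd34 and Gata3 lie close together.

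On cKO plate 3 the same rule called 199 genes higher (3%) and 385 lower (5.8%) of 6639 measured. A total of 89 genes were higher on both plates, which is 31.8% of the dKO list and 44.7% of the cKO list. The lower genes in common were 26.03% of the dKO list and 45.97% of the cKO list. The plates share no cells. The genes higher on both included Ly6a, Bmp4, Mt1, Mt2, Gata3, Il1r2, Gdpd2 and Igfbp3, and those lower on both included Cd34, Cd200, Bgn, Tbx1, Calml3, Sox9 and Postn. Whether any gene's gate difference differs between the genotypes was not tested, since each is 1 sample.

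Few members of the remaining lists passed, beside 4.29% higher and 10.4% lower among all genes. In lists this short, such counts do not set the members apart from all genes. None of 5 cell cycle genes or 11 lipid and cholesterol synthesis genes passed either way, and among 7 D-type cyclins, CDKs and CDK inhibitors Cdkn1a alone was higher (76.4 against 27.03 TPM), though not against dKO plate 1. Of 8 sebaceous genes, Acsbg1 was higher and Mgst1 and Ldhb lower, against 4.29% and 10.4% of all genes. Acsbg1, an acyl-CoA synthetase, had means of 23.8 and 2.82 TPM, but 17.01 and 44.7 TPM on cKO plate 3. There 10 of 22 positive and 18 of 65 negative cells reached 10 TPM of Acsbg1.

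Few markers of other cell types were measured. Of 2 fibroblast genes measured, Thy1 was higher and Col1a1 lower, and of 2 melanocyte genes Mitf was lower. Cspg4, the 1 mural gene measured, was lower, and the 1 Schwann cell and nerve gene measured passed neither way. No immune, endothelial, Merkel or erythroid marker was measured. Among all genes 4.29% were higher and 10.4% lower. Thy1 had means of 16.3 and 3.95 TPM and reached 10 TPM in 9 of 19 positive and 8 of 61 negative cells. Cspg4 had means of 2.22 and 17.21 TPM and reached 10 TPM in 1 positive and 35 negative cells. Mitf had means of 0.47 and 21.6 TPM and reached 10 TPM in no positive and 25 negative cells. Their part in the results was not tested. Summed endothelial markers stayed at or below 1.14 TPM in every positive cell, with 8 of 9 listed at 0 in all, although Ly6c1 is also an endothelial gene. All 7 Merkel and all 5 erythroid markers were listed at 0 in every positive cell, as were 7 of 9 fibroblast markers. At least 3 markers at 10 TPM were found for fibroblasts in 3 negative cells and for Schwann cells and nerve in 2 positive cells, and for no other type. Summed melanocyte markers reached 366 TPM in a positive and 456 TPM in a negative cell. Col1a1, a fibroblast collagen, did not exceed 0.17 TPM in the positive cells and reached 10 TPM in 13 of 61 negative cells, and Bgn, which fibroblasts make too, kept its call without the cells that held 3 markers of another type or of the cell cycle. None of the 12 RNA quality genes was called, with a median log2 ratio of -0.48 against -0.30 for all genes.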

How the data were processed

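Single cells were sorted into plates and amplified by Smart-seq2, and libraries were made by tagmentation and read in pairs, per the labels' protocols. The method counts reads without molecular identifiers and without strand. The deposited table holds TPM per gene, each column scaled by the authors to a fixed total over 46609 rows, 92 of them ERCC spike-ins. Bowtie2 2.2.9, RSEM 1.2.30 and mm10 (GRCm38) are named, per the submitters' processing notes, with the annotation release not given in the sources used here. TPM keeps no read depth, so depth per cell is unknown and genes detected stand in for it. RSEM divides reads of near-identical copies by a model.

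Groups came from the strain and sorting labels, and plates and wells from the titles. Cells with at least 1000 genes at 1 TPM were kept. Cells were sorted singly, and no doublet caller was run. Means, ratios with 1 TPM added, and mean log2(TPM + 1) were computed with pandas 2.3.3 and numpy 2.4.6, and exact (Clopper-Pearson) 95% intervals with scipy 1.17.1. For a share of 0 the upper limit was taken as 3 divided by the number of cells in the gate, an approximation. The exact 95% intervals end at 17.6% for 0 of 19 cells and 5.87% for 0 of 61 cells. Coordinates are from GENCODE M21 by Ensembl ID, and promoters from RefSeq.

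Genes named were Ly6a, Ly6c1, Bmp4, Cd200 and Bgn, the 10 highest and 10 lowest ratios among called genes with 20 TPM in the higher gate and 25% of its cells at 10 TPM (166 and 275 genes qualified, without predicted genes and those of mitochondria or ribosomes), and up to 4 called members of each of 37 lists, or the 2 most abundant where none was called. Other list members were named after their values were seen. Of 489 list genes 487 were found. Some genes belong to several lists and were counted in each of them. The members, lists and rules were chosen with earlier results of these data known. Alternatives were other pseudocounts, filters, thresholds, scalings, well rows and sets of negative cells.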

Additional observations from a re-analysis of the deposited data

Results flagged for a closer look

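Of the genes called on dKO plate 2, 1 was called in the opposite direction on cKO plate 3. Rmnd1, a mitochondrial translation factor, had a log2 ratio of Sca-1-positive to Sca-1-negative cells of -1.91 on dKO plate 2 and 1.37 on cKO plate 3. Its means were 2.93 and 13.8 TPM on dKO plate 2, with 2 of 19 positive and 16 of 61 negative cells at 10 TPM or more, and 20.2 and 7.16 TPM on cKO plate 3, with 7 of 22 and 8 of 65 cells. The difference between the plates was not tested.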

How the results depend on the processing

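No paired analysis was possible because the labels give cells no replicate numbers or animals. The shares of measured genes called higher (4.29%) and lower (10.4%) depended most on thresholds. They were 2.27% and 4.68% with a pseudocount of 10, 6.73% and 9.25% of the 1828 genes averaging at least 20 TPM, 9.38% and 23.6% at a ratio of 1.5, and 1.76% and 3.06% at a ratio of 3. Without the most abundant rows and rescaled, 5.07% and 12.4% of 11643 genes passed. With no filter on genes, 1.62% and 3.98% of the 20326 genes with a mean above 0 passed. By ratio alone 20.6% were lower. Against the negative cells nearest in genes detected, 7.85% were higher. All other alternatives gave 263 to 407 higher and 465 to 888 lower genes. The higher share of calls was 42.1% among genes averaging at least 20 TPM and 43.1% without the highest 5% of cells per gene (354 and 467 genes), against 29.2%. Counts were 407 and 848 with row A alone, 354 and 822 with row B alone, and 332 and 762 without cells holding markers of another type or cycling. Against dKO plate 1 they were 263 and 465, of which 69.6% and 73.1% were also called against plate 2. Of 84 named genes called, 27 kept their call under all 15 alternatives for single genes and 57 lost or turned it under at least 1. Reversed log2 ratios were 2.33 for Krt79 and 2.24 for Defb6 against the negative cells nearest in genes detected, and among genes averaging at least 20 TPM the medians were 0.22 for the transcription factor list and 0.56 for the melanocyte list. The cause was not tested. Since TPM keeps no depth, a gene listed at 0 in a cell may be present below detection, and 19 positive cells limit every share in that gate.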
